A study of Rattus norvegicus with 12 samples.

Results

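Primary atrial fibroblasts of newborn rats that had been exposed to angiotensin II (AngII) alone made up 4 of the 12 libraries of the series, and their expression profile is described here by ranking all 22850 listed features on their mean level. The cells came from the atria of 1 to 3-day-old Sprague-Dawley rats, were set apart from the heart muscle cells by letting them stick to a dish first, and were expanded in serum before use. They then received 1 μmol/L AngII for 48 h in medium with 2% fetal bovine serum. The other groups, AngII+HNG and AngII+MOTS-c, carried the same AngII exposure together with a mitochondrial-derived peptide (HNG, a synthetic analogue of humanin, at 10 μmol/L, or MOTS-c at 5 μmol/L, each given 1 h earlier) and were not compared here. Every library of the series had thus received AngII, so that the levels below describe cells under AngII and none of them can be assigned to AngII. The cells were separated by adhesion and not by a surface marker, and the number of animals pooled per culture is not given in the sources used here.

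Fibroblasts build and maintain the extracellular matrix of the heart. After injury or hormonal stress they can turn into myofibroblasts, which secrete fibrillar collagen and assemble contractile bundles of α-smooth muscle actin, the product of Acta2. AngII is the effector peptide of the renin-angiotensin system, acts on fibroblasts mainly through the AT1 receptor, and is widely used in culture to drive this conversion. Excess matrix between atrial muscle fibres slows conduction and is a known substrate of atrial fibrillation.

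Levels are given in FPKM, the fragments counted on a gene per kilobase of its length after scaling each library to one common total, so that genes can be set side by side per length. Values are listed for AngII libraries 1, 2, 3 and 4 in this order, and errors are the SD over these 4 libraries. The libraries held 33009768 to 38322354 counts, and a count of 0 in a library allows up to 3 counts, or 0.0783 to 0.0909 CPM (counts set to an equal sum per library, with no division by length), for counting error alone. Pearson's r of log2(FPKM + 1) across features was 0.998 in each of the 6 pairs of libraries. The names of libraries 2 and 3 carry the same sample number, but their counts differed by a chi-square of 4.40 per feature, where counting alone gives about 1, and by 5.40 to 8.59 in the other pairs. Separate preparations of 1 culture would also differ by more than counting error, so whether these libraries share a culture cannot be told from the counts. They were used as separate samples, as the labels number them. As no groups were compared, no test was run. A level was taken as higher than another where the lowest library of the one lay above the highest library of the other.

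A total of 11837 features (51.8%) reached a mean of 1 FPKM, 6054 reached 10 FPKM, 618 reached 100 FPKM and 40 reached 1000 FPKM. Counts of list members at 1 FPKM are to be read against that share of all features. No count at all was seen for 5312 features. The profile was concentrated on few genes. The 10 most abundant features held 9.96% ± 0.331 and the 100 most abundant held 32.3% ± 0.265 of the summed FPKM, and between 363 and 377 features per library were enough for 50% of it. Among the 100 most abundant features, 43 were ribosomal protein genes, 16 belonged to the contractile and cytoskeletal lists, 12 to the matrix lists, 11 to the mitochondrial genome, 4 to other lists and 12 to no list, and the remaining 2 were heart muscle markers from the list for cardiomyocytes that no other class had taken. The 100 most abundant features by FPKM had short messages. The length implied by count and FPKM had a median of 998 bases in the 100 most abundant features and of 2746 bases in all features at 1 FPKM or more. With ribosomal and mitochondrial genes set aside, the 46 features left of those 100 had a median of 1726 bases. The 100 features highest by CPM, which is not divided by length, had a median of 2869 bases.

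**Figure D1:**
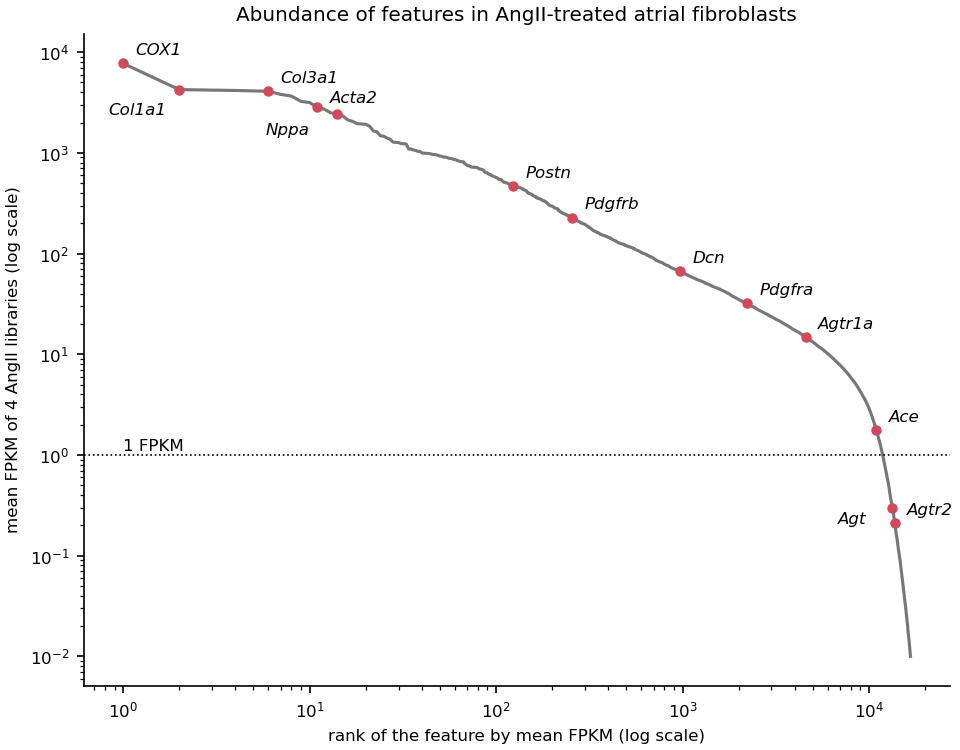
Mean FPKM of each feature over the 4 AngII libraries against its rank, both on log scales, with named genes marked and the limit of 1 FPKM dotted. Col1a1, Col3a1, Acta2 and Nppa stood among the 14 most abundant features, Postn at rank 124, and Agt and Agtr2 below 1 FPKM.

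The most abundant feature was COX1, a cytochrome c oxidase subunit encoded by the mitochondrial genome, at 7376, 7688, 7676 and 8207 FPKM. The second was Col1a1, which encodes the α1 chain of type I collagen, at 4367, 4179, 4125 and 4320 FPKM. Its rank was 5 without library 1, since Col1a1, Eef1a1, COX2, COX3 and Col3a1 lay within a narrow band of means, from 4089 to 4248 FPKM. Between Col1a1 and rank 10 stood the translation factor Eef1a1 (4203 ± 82.1), the mitochondrial genes COX2, COX3, ATP6 and ATP8, the collagen genes Col3a1 and Col1a2, and Sparc, whose product binds collagen. Ranks 11 to 20 held Acta2, Actb, CYTB, Nppa, Eln, Bgn, Tmsb4x, Tagln, Tpt1 and Rplp0. The ATP8 reading frame overlaps that of ATP6, so that reads of the overlap cannot be told apart between them, and ATP8 fell from rank 8 by FPKM to rank 125 by CPM.

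The regions in front of 4 genes that the description returns to are shown with the letters TATAAA, a core promoter element that positions transcription, in capitals. They are Postn (a matrix marker), Nppa and Ccn2 (secreted factors) and Agtr1a (the AngII receptor), chosen for having TATAAA between 60 and 15 bases before the start. The windows of Acta2 and Sparc did not hold exactly these letters, though that of Acta2 held the similar letters tatataa. In Col1a2 TATAAA began 170 bases before the start. Acta1 also had TATAAA, 29 bases before the start, and is not shown. The windows run from 250 bases before to 50 bases after the annotated start, 5′ to 3′ on the strand of the gene, and are RefSeq sequence of the build GRCr8. The build used for the files is not given in the sources used here.
Postn (chr2:140677811-140678110, plus strand): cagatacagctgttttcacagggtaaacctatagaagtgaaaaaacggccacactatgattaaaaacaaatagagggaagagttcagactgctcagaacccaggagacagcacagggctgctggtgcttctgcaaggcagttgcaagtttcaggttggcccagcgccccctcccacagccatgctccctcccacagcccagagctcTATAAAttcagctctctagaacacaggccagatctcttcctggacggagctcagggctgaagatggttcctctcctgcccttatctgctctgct
Nppa (chr5:163711934-163712233, plus strand): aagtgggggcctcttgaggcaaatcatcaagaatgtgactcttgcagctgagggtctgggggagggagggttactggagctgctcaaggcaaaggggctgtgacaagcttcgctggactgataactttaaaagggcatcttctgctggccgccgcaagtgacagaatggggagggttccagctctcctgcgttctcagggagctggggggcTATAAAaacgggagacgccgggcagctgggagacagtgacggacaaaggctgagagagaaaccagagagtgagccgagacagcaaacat
Ccn2 (chr1:22624565-22624864, minus strand): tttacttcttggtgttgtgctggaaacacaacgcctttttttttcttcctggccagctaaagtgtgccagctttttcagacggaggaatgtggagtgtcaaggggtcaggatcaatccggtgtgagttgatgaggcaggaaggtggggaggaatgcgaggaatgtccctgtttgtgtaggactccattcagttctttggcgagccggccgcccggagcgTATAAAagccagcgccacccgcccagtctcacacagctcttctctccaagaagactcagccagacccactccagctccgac
Agtr1a (chr17:34435383-34435682, minus strand): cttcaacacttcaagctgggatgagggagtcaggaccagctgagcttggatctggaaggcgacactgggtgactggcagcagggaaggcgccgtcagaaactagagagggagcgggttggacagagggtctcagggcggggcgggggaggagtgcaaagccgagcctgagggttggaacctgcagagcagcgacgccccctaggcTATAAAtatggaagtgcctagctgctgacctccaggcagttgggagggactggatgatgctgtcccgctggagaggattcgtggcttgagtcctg

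In these windows TATAAA began 44 bases before the start in Postn, 39 in Nppa, 31 in Ccn2 and 45 in Agtr1a. Of all 24206 promoter windows with a unique symbol, 9.25% held TATAAA on the strand of the gene and 7.07% on the other strand, and 2.79% held it on the gene's strand within 15 to 60 bases before the start. The share with TATAAA at that distance was 10.3% (7 of 68) in the 100 most abundant features, 4.04% in the 1000 most abundant and 1.52% in the features at 1 FPKM or more. Among the lists it was 15.7% (18 of 115) for secreted factors and 11.8% (2 of 17) for cardiomyocyte markers. It was 10.6% (5 of 47) for contractile and cytoskeletal genes and 5.41% (8 of 148) for matrix genes. For ribosomal proteins it was 4.17% (3 of 72) and for receptors 1.55% (2 of 129). These shares are descriptions of letters in a window and were not tested. No window was listed for Col1a1, Col3a1, Tagln, Eln, Bgn, Actb and Fn1.

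The labelled cell type was compared with its markers. In bulk RNA, fewer cells of a type and less RNA per cell cannot be told apart. All 20 genes of the fibroblast list reached 1 FPKM, and their summed FPKM was 11609, 11508, 11245 and 12006, or 2.72% ± 0.0919 of the total and 5.15% of the counts. Col1a1 (4248 FPKM) and Col3a1 (4089 FPKM) gave most of that sum, so the share rests largely on them. Besides collagen, Vim, an intermediate filament of mesenchymal cells, stood at 1405 ± 29.3 FPKM and Mgp, an inhibitor of calcification, at 636 ± 54.3. Tcf21, a transcription factor of resident heart fibroblasts, was at 105, 107, 99.3 and 108 FPKM. Thy1 (75.8), Ddr2 (72.0), Dcn (66.8) and Pdgfra (32.1), surface and matrix markers in common use, lay between 32.1 and 75.8 FPKM, while Pi16 (3.14) and Fap (6.20) were the lowest of the list. Dcn (59.6 to 83.0 FPKM over libraries) and Lum (79.7 to 106) were highest in library 4.

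Of the myofibroblast list, 14 of 15 genes reached 1 FPKM, with a summed FPKM of 11834, 11539, 11483 and 11540, or 2.72% ± 0.0596 of the total and 4.81% of the counts. Col1a1 is shared with the fibroblast list. Acta2 was at 2903, 2836, 2825 and 2742 FPKM and Tagln, which encodes the actin-binding protein transgelin, at 1959, 2043, 1953 and 1847. Postn, which encodes the matricellular protein periostin of activated fibroblasts, was at 446, 424, 423 and 581 FPKM. Library 4 stood 1.30 times above the next library in Postn, and without it the other 3 libraries lay within 423 to 446 FPKM. Cilp (12.3), Meox1 (3.73) and Comp (0.188), also linked to activated heart fibroblasts, were the lowest, and Comp stayed below 1 FPKM.

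Genes of heart muscle cells were abundant in the same libraries. All 22 genes of the cardiomyocyte list reached 1 FPKM, 11 of them reached 100 FPKM, and the list summed to 6112, 6095, 5739.6 and 6131 FPKM, or 1.412% ± 0.0511 of the total and 0.915% of the counts. Nppa, which encodes atrial natriuretic peptide, alone held 2494, 2367, 2352 and 2449 FPKM at rank 14. Without Nppa the list still held 0.845% of the summed FPKM. The sarcomere genes Actc1 (911 ± 44.1), Tnnt2 (745 ± 35.9), Myh6 (318 ± 30.5) and Tnnc1 (246 ± 9.70) followed. No defining marker of the list was at 0, and the lowest was Ttn, the gene of the giant spring protein titin, at 3.09, 2.86, 2.68 and 3.31 FPKM with 9854 to 13968 counts. Library 3 was the lowest of the 4 in the list. The part of muscle cells in the levels of shared genes such as Actc1, Tpm1 or Nppa was not tested.

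Chamber-specific isoforms were present side by side. Myl7, the atrial regulatory light chain, was at 175, 185, 159 and 174 FPKM and Myl2, the ventricular one, at 152, 175, 163 and 172, and their ranges overlapped. Myl4, an atrial essential light chain, was at 133 ± 9.95 and Myl3, its ventricular counterpart, at 148 ± 7.07 FPKM, again with overlapping ranges. Myh6, the α-myosin heavy chain of adult rat atria, exceeded Myh7, the β chain, by 2.66 ± 0.167 times. Sln, which encodes the atrial regulator sarcolipin, was at 49.4 ± 1.414 FPKM, below Pln, its relative phospholamban, at 75.3 ± 3.50.

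Markers of other cells were lower. Of the macrophage list 17 of 18 genes reached 1 FPKM, and its sum was 204, 209, 216 and 242 FPKM, highest in library 4. Lyz2, the gene of a lysozyme of myeloid cells, gave 81.5 ± 6.34 FPKM of that. Fcer1g (21.7 ± 1.93) and Tyrobp (18.7 ± 0.697), signalling adaptors of myeloid receptors, and the endotoxin co-receptor gene Cd14 (16.5 ± 2.30) followed, Cd68 gave 16.3 ± 2.31, and Cd163, a scavenger receptor of resident macrophages, was at 0.0408. The smooth muscle and pericyte list had 11 of 15 genes at 1 FPKM, led by the adhesion molecule Mcam (134 ± 7.41) and the filament gene Des (117 ± 10.8), which muscle cells also express. Notch3, a receptor of mural cells, was at 54.7 ± 1.35. Myh11, the smooth muscle myosin heavy chain, was at 26.0, 25.4, 24.7 and 25.6 FPKM, and Myh6 exceeded it by 12.5 ± 0.976 times. The pericyte markers Rgs5 (6.18, 6.83, 10.05 and 11.7), Higd1b (0.317) and Steap4 (0.138) were low, and Rgs5 was higher in libraries 3 and 4 than in 1 and 2.

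The endothelial list summed to 35.4, 33.0, 36.1 and 34.4 FPKM with 10 of 14 genes at 1 FPKM. Its highest member was the VEGF receptor Flt1 at 8.17 ± 0.268 FPKM, followed by the angiopoietin receptor Tek (4.53), Egfl7 (3.72) and the junction cadherin Cdh5 (3.65), while Vwf (0.853) and Cldn5 (0.315) stayed below 1. Of the epicardial and mesothelial list, 8 of 14 reached 1 FPKM, led by the retinoic acid synthase gene Aldh1a2 (26.7 ± 2.32), with mesothelin, Msln, at 8.64 ± 1.34 and the transcription factors Tbx18 at 8.47 ± 0.118 and Wt1 at 4.17 ± 0.405. The Schwann cell and neuron list had 4 of 16 genes at 1 FPKM, with Uchl1 at 34.1 ± 2.09, the neuronal filament gene Prph at 1.13, S100b at 0.965, 0.961, 0.989 and 1.43, Sox10 at 0.263, and Th and Chat at 0 in all 4 libraries. The adipocyte list was at 1 of 6 (Fabp4, 8.05 ± 0.763), with Adipoq (0.241), Ucp1 (0.0561) and Plin1 (0.0368) below 1. The lymphocyte list was at 1 of 12 (Cd8a, 1.01 ± 0.286), with Lck (0.191), Cd79a (0.0553) and Pax5 (0.00477) below 1. The red blood cell list was at 0 of 11, led by the haemoglobin chaperone gene Ahsp (0.680), the globin copies Hba-a2 (0.154) and Hba-a3 (0.150) and Alas2 (0.0147). Cd3d, Cd3e, Cd3g, Ms4a1, Cd79b, Nkg7 and Klrb1a of the lymphocyte list and Hba-a1, Hbb, Hbe1, Hbb-bs and Hbb-b1 of the red blood cell list had no count in any library.

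**Figure D2:**
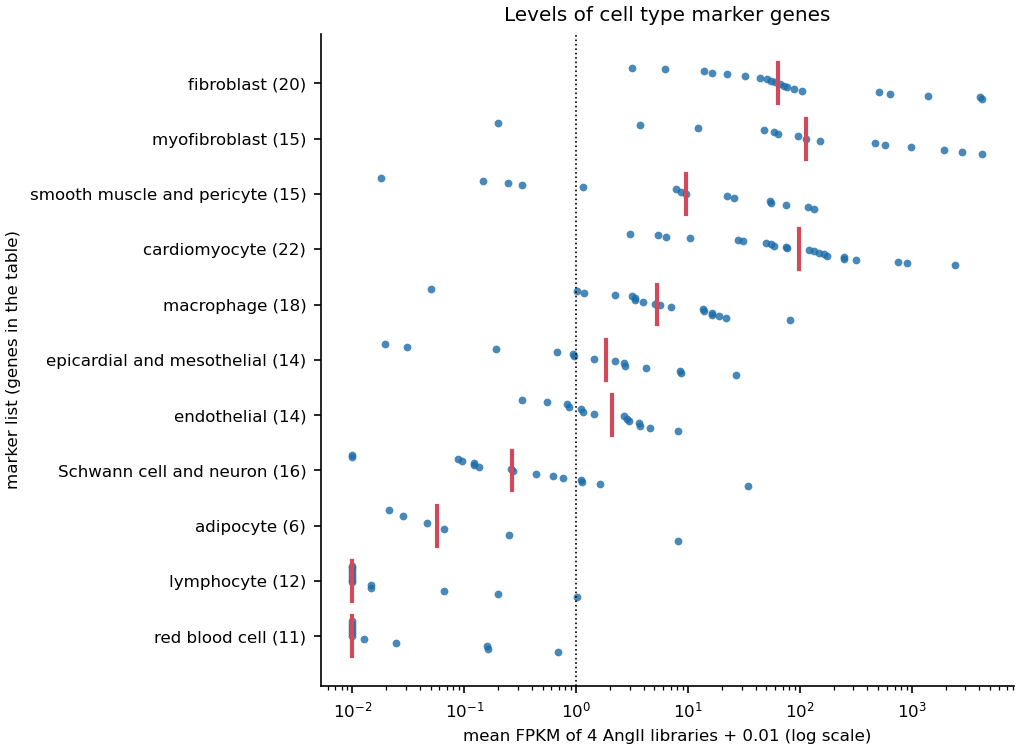
Mean FPKM over the 4 AngII libraries (log scale, 0.01 added so that genes at 0 can be drawn) of each gene of 11 cell type marker lists, with 1 point per gene, the list median as a red bar and the limit of 1 FPKM dotted. The fibroblast, myofibroblast and cardiomyocyte lists had medians of 63.5, 114 and 97.6 FPKM, and all other lists lay lower.

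The 7 matrix lists together held 8.66% ± 0.194 of the summed FPKM and 16.2% of the counts, which are not divided by gene length, and 157 of 197 listed genes reached 1 FPKM. Fibrillar collagens, the rope-like collagens that give tissue its tensile strength, made up 2.90% ± 0.0858 by FPKM and 6.71% of the counts. Col3a1, the sole chain of type III collagen, stood at 4057, 4044, 3909 and 4346 FPKM and overlapped in range with Col1a1. Col1a2, the α2 chain of type I collagen, stood at 3252, 3237, 3247 and 3234 FPKM, with the small CV of 0.254% between libraries. Type I collagen is a trimer of 2 α1 chains and 1 α2 chain, and the ratio of Col1a1 to Col1a2 messages was 1.31 ± 0.0350, the highest library at 1.34. Col5a2 (352 ± 4.11) and Col5a1 (338 ± 5.85), whose type V collagen helps start type I fibrils, were about an order of magnitude lower than the type I chains, followed by Col11a1 (50.9 ± 2.49) and Col5a3 (33.4 ± 1.76). Col2a1, the collagen of cartilage, was at 0.0115 FPKM.

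Of the other collagens, 17 of 32 reached 1 FPKM, near the share of 51.8% over all features. Col4a1 and Col4a2, the common chains of basement membrane collagen, stood at 982 ± 16.1 and 691 ± 8.65 FPKM. Their ratio of 1.42 ± 0.0138 varied little, from 1.4101 to 1.44. The beaded filament genes Col6a1 (397, 409, 380.4 and 435) and Col6a2 (391, 402, 377 and 445) overlapped in range, and Col6a3 (156, 154, 150.1 and 183) was lower, with library 4 the highest in all 3 of them. Col14a1, whose product binds to the surface of fibrils, was at 322 ± 17.5 FPKM. Col4a3 (3.84), Col4a4 (3.89) and Col4a6 (2.18), chains of restricted tissue distribution, were low, and Col10a1, a hypertrophic cartilage collagen, was at 0.116.

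The machinery that folds and cross-links collagen was present almost throughout: 25 of 26 listed genes reached 1 FPKM, and the list held the steady share of 0.912% to 0.914% of FPKM. Serpinh1, which encodes the collagen chaperone HSP47, was at 1005, 1080.2, 1041 and 1025 FPKM. Pcolce, an enhancer of procollagen cleavage, was at 483 ± 13.9, P4hb, the shared subunit of prolyl 4-hydroxylase, at 447 ± 6.77, and the prolyl isomerase gene Ppib at 298 ± 12.2. P4ha1, the main catalytic subunit of prolyl 4-hydroxylase, was at 285 ± 4.60, and Colgalt2, a collagen galactosyltransferase, at 0.775 was the member below 1 FPKM. Among the lysyl oxidases, which cross-link collagen and elastin, Loxl2 (175 ± 2.28), Loxl1 (153 ± 6.72) and Lox (151 ± 3.22) lay close together, and Loxl3 (11.6) and Loxl4 (1.19) were far lower. Plod2, the telopeptide lysyl hydroxylase, was at 210.0 ± 6.42 FPKM, above Plod3 (68.5) and Plod1 (53.7). Bmp1, which cleaves the C-propeptide, was at 59.3 ± 1.17 and Adamts2, which cleaves the N-propeptide, at 40.9 ± 2.30.

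Of the matrix glycoproteins, 34 of 39 reached 1 FPKM. Sparc was at 2946, 3270.4, 3205 and 3245 FPKM, with library 1 the lowest. Eln, the gene of tropoelastin, was at 2298, 2319, 2369 and 2389 FPKM and 8.18 ± 0.274 times as high as Fbn1, whose fibrillin microfibrils scaffold elastic fibres. Fn1, which encodes fibronectin, was at 1006, 963, 1019 and 962, Igfbp7 at 685 ± 27.0 and Thbs1, an activator of latent TGF-β, at 571 ± 31.0 FPKM. Thbs1 and Postn overlapped in range through library 4 alone, and in libraries 1 to 3 Thbs1 (601, 555, 593 and 536 over the 4 libraries) lay above Postn. Spp1, the gene of osteopontin, was at 133, 148, 135 and 191 FPKM and Thbs2 at 29.7, 27.4, 30.5 and 37.3, and both were highest in library 4. Tnc, a glycoprotein of remodelling tissue, was at 47.9 ± 4.30, whereas Tnn (0.0760), Thbs4 (0.209) and Vtn (0.00818) were below 1 FPKM.

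Bgn, the small leucine-rich proteoglycan biglycan, was at 2145, 2041, 2098 and 2229.9 FPKM and its relative Dcn, decorin, at 59.6, 62.8, 61.7 and 83.0. The ratio of Bgn to Dcn was 32.3 ± 3.93, lowest in library 4 at 26.9. Ogn (211 ± 9.72), Sdc2 (196 ± 13.1), Gpc4 (169 ± 9.04) and Aspn (127 ± 11.9) lay between, Lum (87.8 ± 12.0) overlapped in range with Dcn, and 23 of 29 listed proteoglycan genes reached 1 FPKM. Vcan, the large hyaluronan-binding versican, was at 47.3 ± 1.12, and the hyaluronan synthases Has1 (1.73) and Has2 (1.59) were low. In the basement membrane list (16 of 21 at 1 FPKM), the linker nidogen gene Nid1 led at 396 ± 9.81 FPKM, followed by the laminin γ1 chain Lamc1 (219 ± 5.72), perlecan Hspg2 (168 ± 6.48) and the β1 chain Lamb1 (137 ± 1.30). Of the laminin α chains, Lama4 (54.7), Lama2 (41.7) and Lama5 (32.6) were found, and Lama1 (0.338) and Lama3 (0.164) were below 1 FPKM.

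**Figure D3:**
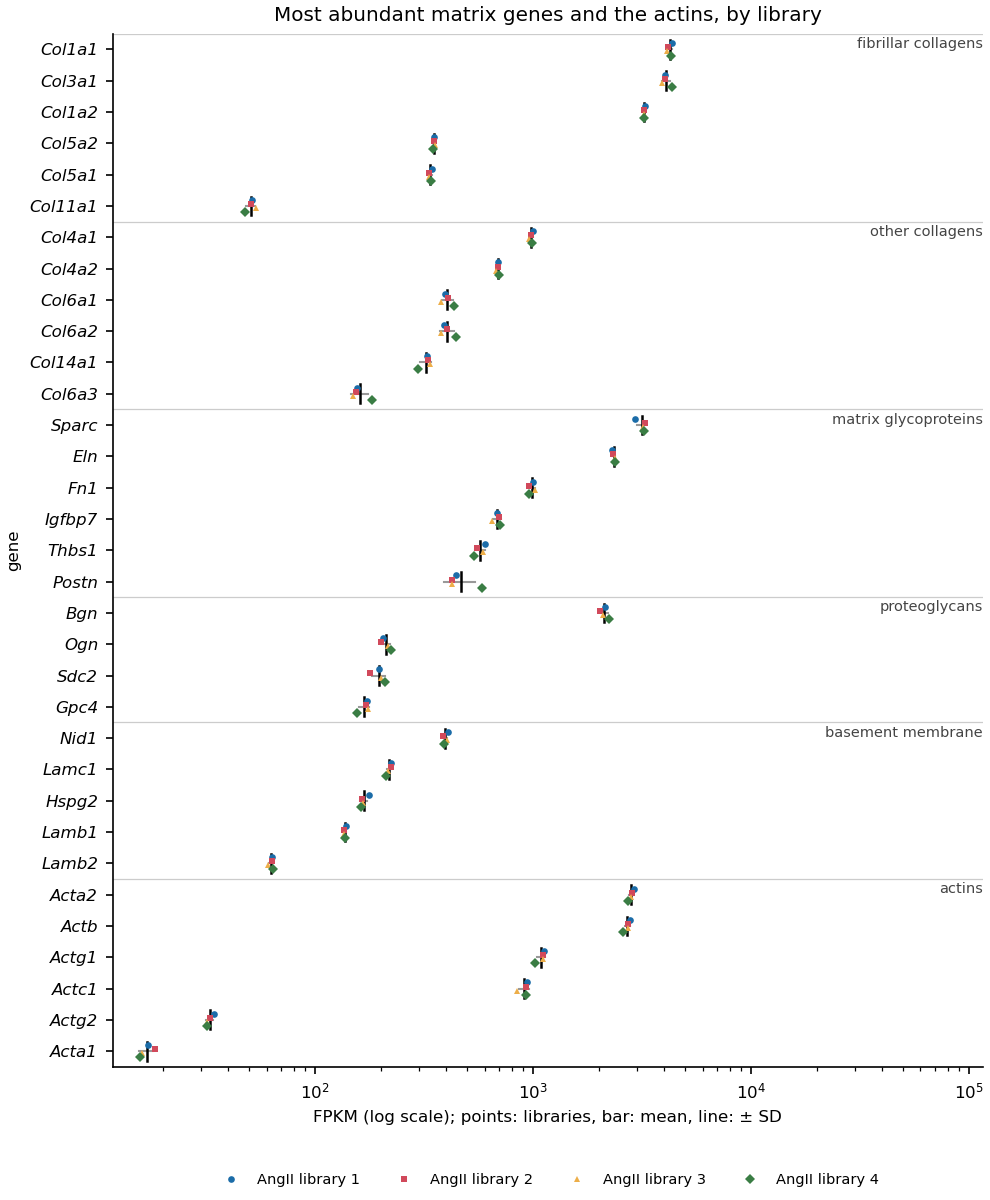
FPKM (log scale) of the most abundant genes of 5 matrix lists and of the 6 actin genes in each AngII library, with 1 point per library, the mean as a bar and the SD as a line. Postn and Col6a3 had library 4 apart from the others, and Col1a2 had its 4 libraries within 3234 to 3252 FPKM.

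Genes that degrade matrix and their inhibitors were both present, with 33 of 39 at 1 FPKM. Plat, tissue plasminogen activator, was at 155 ± 10.9 FPKM and Plau, urokinase, at 8.23 ± 1.06. The gelatinase gene Mmp2 (298 ± 12.5), its membrane-bound activator Mmp14 (267 ± 27.2) and the inhibitor Timp2 (267 ± 11.5), which takes part in that activation, overlapped in range. Within each library the ratio of Mmp2 to Timp2 lay between 1.09 and 1.16. Timp1 (60.2 ± 1.80) and Timp3 (54.1 ± 0.592) were lower and Timp4 was at 0.114 FPKM. Mmp9, the other gelatinase, was at 0.592, and the collagenases and stromelysins Mmp3, Mmp8, Mmp10 and Mmp13 had no count in any library. Mmp12, an elastase known from macrophages, was at 36.9, 35.1, 39.6 and 41.1 FPKM.

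The contractile and cytoskeletal lists together held 6.65% ± 0.148 of FPKM. The order of the actins was Acta2, Actb, Actg1, Actc1, Actg2 and Acta1. Acta2 (2827 ± 65.9) and the cytoplasmic Actb (2785, 2740.2, 2726 and 2602) did not separate in range, whereas each later neighbour did. Within each library the ratio of Acta2 to Actb still lay between 1.03 and 1.05. Actg1, the other cytoplasmic actin, was at 1119, 1118, 1112 and 1026 FPKM and the cardiac Actc1 at 935, 929.9, 845 and 933. Actg2, enteric smooth muscle actin, was at 34.6, 33.0, 32.0 and 32.0, and Acta1, skeletal actin, at 17.2, 18.5, 16.0 and 15.8 FPKM. Actin genes are near-identical in their coding parts, and how reads shared between them were assigned is not given in the sources used here.

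All 19 smooth muscle contractile genes in the table reached 1 FPKM. Behind Tagln came the tropomyosins Tpm1 (716 ± 24.8) and Tpm2 (637 ± 56.9), the light chain Myl9 (595 ± 29.9) and the LIM protein gene Csrp1 (477 ± 20.1). The late smooth muscle genes Cnn1, calponin (94.2, 96.1, 95.4 and 98.5), Smtn, smoothelin (53.7 ± 1.05), and Lmod1 (22.0 ± 1.36) were lower, and Acta2 exceeded Cnn1 in every library. Of the cytoskeletal list, all 38 genes reached 1 FPKM, led by the actin-sequestering Tmsb4x (2045, 2126, 2000.1 and 2046), then Vim, Myl6 (954 ± 40.4) and Tmsb10 (882, 906, 1042 and 883). Tmsb10 was highest in library 3. The non-muscle myosins Myh9 (355 ± 10.5) and Myh10 (149 ± 2.73), which power stress fibres, stood at a ratio of 2.38 ± 0.0582.

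Integrins couple these fibres to the matrix. Itgb1, the β1 chain shared by the collagen and fibronectin receptors, was at 1026, 970.3, 1002 and 966 FPKM and 9.83 ± 0.156 times as high as Itga1, the most abundant α chain, at 101 ± 2.67. Itgb5 (77.5 ± 1.06) and Itgav (56.3 ± 1.85), subunits of vitronectin receptors that can release TGF-β from its latent complex, and Itga11 (72.1 ± 4.43), a collagen receptor of fibroblasts, followed. Itga8 (50.8) and the fibronectin receptor Itga5 (36.2) were next. The leukocyte chain Itgb2 was at 8.37 ± 0.684 FPKM, and Itgb7 had no count.

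Of the renin-angiotensin system, the main AngII receptor was present and the precursor of AngII stayed below 1 FPKM. Agtr1a, the AT1a receptor through which AngII acts on fibroblasts, was at 14.5, 14.001, 16.4 and 14.2 FPKM with 1454, 1269, 1502 and 1416 counts, at rank 4574. Agtr1b, its rodent paralog, had 3 counts in library 3 and none in the others. Agtr2, the AT2 receptor, had 25, 4, 33 and 10 counts and a level of 0.199, 0.0964, 0.316 and 0.231 FPKM. The count and the FPKM of Agtr2 did not move together, and the cause was not tested. Mas1, the receptor of angiotensin-(1-7), was at 0.159 FPKM with 31, 15, 9 and 17 counts. Thus Agtr1a lay above Agtr2 and Mas1 in every library.

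Agt, which encodes the precursor angiotensinogen, was at 0.253, 0.346, 0.312 and 0.291 FPKM with 25, 32, 27 and 29 counts. Ace, the converting enzyme, was at 1.70, 1.64, 1.79 and 1.92 FPKM. Cma1, a chymase, and Cyp11b2, aldosterone synthase, had no count. The peptidases that can trim AngII were higher: Anpep (14.6, 14.4, 14.6 and 17.1), Enpep (6.08, 5.90, 5.67 and 6.57), Lnpep (13.8, 12.4, 13.3 and 14.2) and Mme (2.83, 2.91, 2.83 and 2.44). Library 4 was the highest for Anpep and the lowest for Mme. Atp6ap2, the prorenin receptor and also a proton pump component, led the list at 24.4, 23.1, 23.7 and 26.2 FPKM. Agtrap, an AT1 receptor-binding protein, was at 6.69, 6.32, 7.28 and 7.15.

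Of the steroid branch of the list, Nr3c2, the mineralocorticoid receptor, was at 1.44, 0.957, 1.28 and 1.07 FPKM. Hsd11b1, which regenerates active glucocorticoid, was at 15.1, 15.5, 13.6 and 14.8 and Hsd11b2, which inactivates it, at 0.157, 0.145, 0.169 and 0.114. In all, 10 of 19 genes of the list reached 1 FPKM, near the share of 51.8% over all features. Neighbours in the order from Anpep over Agtr1a and Hsd11b1 to Lnpep overlapped in range, while Atp6ap2 lay above and Agtrap below them.

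Among receptor kinases and TGF-β family receptors, 41 of 46 reached 1 FPKM. Pdgfrb was the most abundant at 223, 217, 225 and 243 FPKM and exceeded Pdgfra, at 31.6, 29.8, 32.3 and 34.5, by 7.08 ± 0.131 times. Eng, the TGF-β co-receptor endoglin, was at 127 ± 5.04, Igf2r, which also sorts lysosomal enzymes, at 119 ± 2.11 and Axl, the receptor of Gas6, at 104 ± 3.30 FPKM. The collagen receptor Ddr2 was 1.94 ± 0.0233 times as high as Ddr1. The signalling TGF-β receptors Tgfbr2 (42.1, 40.9, 43.1 and 45.0) and Tgfbr1 (13.9, 12.9, 14.4 and 14.8) were separate in level. The natriuretic peptide receptors Npr2 (14.9 ± 0.425), Npr3 (13.2 ± 1.55) and Npr1 (6.29 ± 0.635) were all present beside the abundant Nppa.

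Of the G protein coupled receptors, 40 of 65 reached 1 FPKM, 14 reached 10 FPKM and none reached 100. F2r, the thrombin receptor PAR1, led at 87.5, 85.1, 84.8 and 87.0 FPKM, followed by the Wnt receptors Fzd2 (51.6 ± 0.580) and Fzd1 (42.8 ± 3.11) and the sphingosine 1-phosphate receptors S1pr2 (29.8 ± 0.368) and S1pr3 (22.1 ± 1.32). Lpar1, a receptor of lysophosphatidic acid (14.98 ± 0.423), and Fzd7 (14.8 ± 0.801) were near Agtr1a in level. Ednra, the endothelin A receptor, was at 6.07 ± 0.501 and Ednrb at 2.30 ± 0.194 FPKM. The adrenergic receptors Adrb1 (3.01) and Adra1a (2.54) and the muscarinic Chrm2 (8.11) were low.

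The cytokine receptor list had 28 of 33 genes at 1 FPKM. Tnfrsf11b, which encodes the soluble decoy receptor osteoprotegerin, was at 102, 99.9, 104 and 91.6 FPKM. Il6st, the signal chain gp130 shared by the IL-6 family, was at 83.2, 78.9, 84.4 and 80.3, while its partners Osmr (28.9), Lifr (3.46) and Il6r (2.42) were lower. Tnfrsf12a (70.8 ± 4.66) and Tnfrsf1a (70.8 ± 2.31), receptors of TWEAK and of tumour necrosis factor, overlapped in range. Il1rl1, the receptor gene of IL-33, was at 65.8 ± 1.24 FPKM and Il33 itself at 1.71.

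Among secreted growth factors and hormones, 52 of 67 reached 1 FPKM. After Nppa, Ccn2, the gene of connective tissue growth factor, stood at 1139.5, 1130, 1101 and 989 FPKM and was lowest in library 4. Its relatives Ccn5 (339 ± 11.6), Ccn3 (255 ± 10.9) and Ccn1 (190.2 ± 12.6) followed, Ccn4 was at 12.6 ± 0.897 and Ccn6 at 0.00343. Nppb, the gene of B-type natriuretic peptide, was at 242, 262, 251 and 238 FPKM, and Nppa exceeded it by 9.75 ± 0.640 times. Of the TGF-β ligands, Tgfb3 was highest at 227, 263, 210.4 and 192, above Tgfb2 at 56.7, 56.2, 54.8 and 50.7 and Tgfb1 at 35.0, 33.1, 33.2 and 36.8 FPKM. The 3 ligands did not overlap in range, and the ratio of Tgfb3 to Tgfb1 ran from 5.21 to 7.94. The length implied by count and FPKM of Tgfb3 differed by up to 1.19 times between libraries, so its FPKM spread depends in part on that length. Edn1, the gene of endothelin-1, was at 36.6, 37.97, 38.8 and 28.4 FPKM, with library 4 the lowest, and Igf1 at 49.2, 45.0, 43.1 and 57.6, with library 4 the highest.

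Secreted antagonists were led by Fstl1, a follistatin-like glycoprotein, at 740.1, 742, 738 and 696 FPKM, far above Dkk3 (42.7 ± 3.24), Igfbp6 (39.6 ± 1.62) and Sema3c (39.3 ± 1.01). Grem1, a BMP antagonist, was at 10.5 ± 0.296, and Dkk1 and Igfbp1 had no count. The cytokine list held only 0.0698% ± 0.00282 of FPKM. Mif (72.3, 81.7, 81.4 and 68.1) and the monocyte attractant Ccl2 (60.9, 71.8, 49.7 and 72.3) led it, and Ccl2 was lowest in library 3. Csf1 (45.8 ± 1.48), the macrophage growth factor, and Cxcl12 (29.2 ± 1.68) followed. Il6 was at 0.512, 0.477, 0.431 and 0.233 FPKM with 22, 19, 16 and 10 counts, Il1b at 0.131 and Tnf at 0.340, and Tnfsf11, Csf3, Ccl5, Cxcl2 and Cxcl9 had no count.

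Of the complement and plasma proteins, 17 of 27 reached 1 FPKM. B2m, the light chain of class I molecules, was at 167 ± 8.61 FPKM, Cst3, a cysteine protease inhibitor, at 127 ± 3.42, Clu, clusterin, at 125 ± 4.01, C1r at 104 ± 3.74 and Apoe at 99.6 ± 6.08. C7, a component of the membrane attack complex, was at 45.1, 44.4, 52.1 and 71.4 FPKM, 1.37 times higher in library 4 than in the next library. C3, the central component, was at 0.0755 and C5 had no count.

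**Figure D4:**
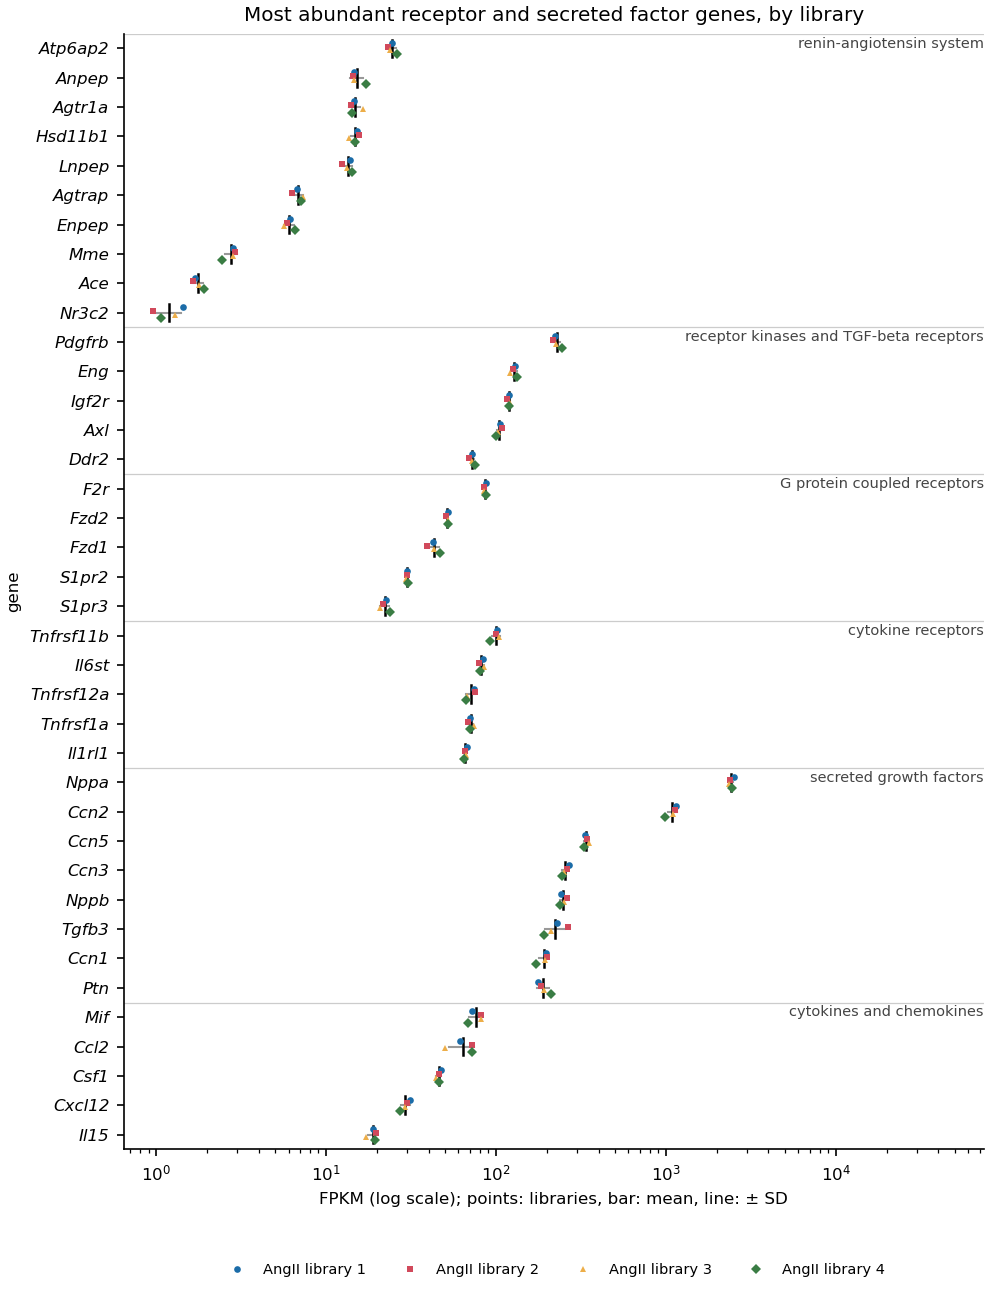
FPKM (log scale) of the most abundant genes of the renin-angiotensin, receptor and secreted factor lists in each AngII library, with 1 point per library, the mean as a bar and the SD as a line. Agtr1a lay between 14.001 and 16.4 FPKM, Pdgfrb between 217 and 243 and Nppa between 2352 and 2494.

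The transcription factor list had 65 of 72 genes at 1 FPKM. It was led by Atf4, a stress response factor (281 ± 12.7), and Id3, an inhibitor of basic helix-loop-helix factors (232 ± 5.66), ahead of Tcf21. The heart factors Tbx20 (59.7, 56.7, 58.5 and 59.8) and Gata4 (47.2, 45.9, 45.8 and 47.0) were separate in level and varied little between libraries. Nkx2-5 (9.05 ± 0.872), a factor of heart muscle cells, and Tbx5 (3.19 ± 0.374) were lower. Nr2f2, which specifies atrial identity, was at 23.7 ± 0.869 and Irx4, a ventricular factor, at 1.80 ± 0.119 FPKM. The mechanical and serum response regulators Yap1 (45.3 ± 1.32), Tead1 (42.4 ± 2.77), Wwtr1 (26.4 ± 1.55), Srf (21.7 ± 0.884) and Mrtfa (10.5 ± 0.450) were above 10 FPKM, as were Tead3 (22.2 ± 1.17) and Tead2 (12.4 ± 0.454), whereas Mrtfb (5.57 ± 0.353) and Tead4 (3.42 ± 0.399) were below it.

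Channel genes were of low level: 44 of 62 reached 1 FPKM, 10 reached 10 FPKM and the highest, the potassium channel subunit Kcne4, was at 31.2 ± 1.28. Cacnb3, a calcium channel β subunit, was at 26.0 ± 0.581 and Gja1, connexin 43, at 24.7, 21.9, 22.8 and 24.4 FPKM. Piezo1, a stretch-gated channel (22.5 ± 0.903), and Trpm7 (22.2 ± 0.566) were next. Ryr2 (6.39 ± 0.714), a calcium release channel of heart muscle cells, was above 1 FPKM.

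All 34 genes of the cell division list reached 1 FPKM, and its sum was 660.2, 683, 676 and 609.5 FPKM, lowest in library 4. The cyclin D genes Ccnd3 (81.5 ± 3.73) and Ccnd2 (52.9 ± 2.19), the replication clamp Pcna (53.0 ± 2.87) and the kinase Cdk1 (32.8 ± 2.35) led it. Mki67, whose protein marks cycling cells, was at 10.9 ± 0.582 FPKM and Top2a, a topoisomerase of dividing cells, at 17.4, 19.1, 20.4 and 17.0. The inhibitors Cdkn1b (31.4 ± 1.05), Cdkn1a (24.2 ± 2.99) and Cdkn2b (14.6 ± 0.504) were present, and Cdkn2a, which encodes p16, was the lowest of the list at 3.28, 3.01, 2.78 and 1.84. The 13 mitochondrial mRNAs summed to 31970, 33451, 33851 and 35395 FPKM, or 7.58% to 8.35% of the total and 3.33% of the counts, highest by FPKM in library 4. Ribosomal proteins summed to 48910, 52626, 52238 and 48937 FPKM, with libraries 2 and 3 above 1 and 4, and held 11.9% of FPKM and 3.84% of the counts.

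The libraries were close to each other. Over the 6054 features of 10 FPKM or more, the median CV between libraries was 4.10%, against a median of 2.07% that counting alone would give, and 24 features had a CV over 20%. The most variable was LOC103690996 at 113, 2.58, 2.98 and 119 FPKM, low in libraries 2 and 3 and high in 1 and 4. Tomm6, a subunit of the mitochondrial import pore, was at 45.5, 1.51, 53.0 and 39.8 FPKM and low in library 2 alone, and LOC108349682 was at 19.7, 38.9, 65.0 and 16.1. Snrpel1, named after a splicing protein gene, was at 19.7, 8.13, 9.91 and 32.4 FPKM and Arpc5l, an actin nucleation subunit, at 27.8, 10.6, 9.98 and 25.1. Arpc5l had 1586, 924, 804 and 1407 counts, and the length implied by its count and FPKM differed between libraries by up to 1.68 times. Features with LOC numbers or endings such as l1 can be copies of other genes, and reads of near-identical copies cannot be told apart, so their values are uncertain. Among the matrix and secreted genes named above, C7 (23.7%), Spp1 (18.005%), Dcn (16.3%) and Postn (16.2%) were highest in library 4, with counting CVs of 1.01%, 1.08%, 1.55% and 0.422%. Ccl2 (16.8%) was also highest there, close to library 2, and lowest in library 3, and Tgfb3 (13.6%) and Edn1 (13.5%) were lowest in library 4.

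**Figure D5:**
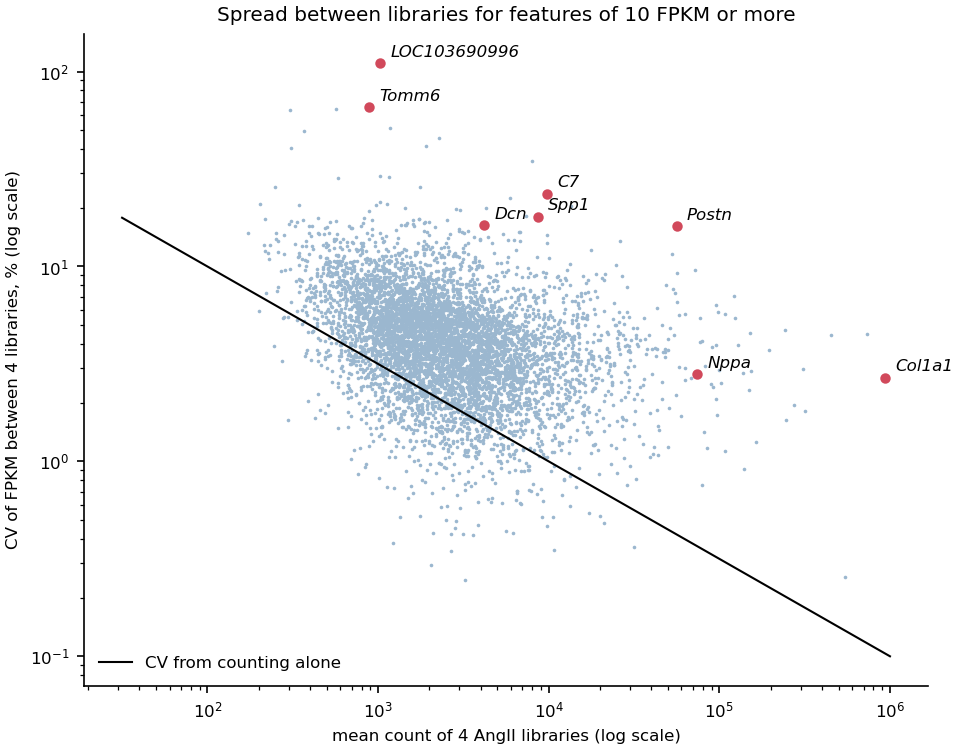
CV of FPKM between the 4 AngII libraries (%, log scale) against the mean count (log scale) for the 6054 features of 10 FPKM or more, with the CV that counting alone gives as a line. Postn, C7 and Dcn had CVs of 16.2%, 23.7% and 16.3%, and Col1a1 and Nppa had CVs of 2.69% and 2.80%.

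Library 4 was the highest of the 4 in 17 of 35 lists and the lowest in 11. For single features of 10 FPKM or more it was the highest in 1432 (23.7%), and the lowest in 2029. Its higher sums covered fibrillar collagens, proteoglycans, macrophage markers and the mitochondrial mRNAs, and its lower sums covered actins, smooth muscle contractile genes, secreted growth factors and cell division. The macrophage list and the sum of the matrix lists thus stood highest in the same library, and the part of macrophages in these levels was not tested.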

How the data were processed

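The 4 AngII columns of a deposited table were used, with groups and replicate numbers from the sample titles; all 12 columns of each table were matched to samples and 0 were left over. The authors made mRNA libraries, sequenced paired-end reads and deposited whole-number counts per feature, not normalized, and FPKM values of the same features, normalized by the authors for length and library total. The submitters' processing notes name HISAT2, Picard 1.41 and SAMtools 0.1.18. The counting tool, genome build, annotation and use of strand are not given in the sources used here. Without strand, overlapping and antisense genes cannot be told apart.

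Features were ranked by mean FPKM, with 1 FPKM as the limit for being described as present. Gene lists were summed per library, and a level was placed above another where their library ranges did not overlap. Implied length is the count divided by the FPKM and the library total. The lists, the rule and the genes were chosen with earlier results of these data known. Named were the 4 markers, the 20 most abundant symbols, the 4 highest of each list, all actins and renin-angiotensin genes, the 5 highest CVs at 10 FPKM or more, and markers at 0; further members were named after their values were seen, and some genes the rule names are not reported here. Listed genes missing from the table were Crtap, Pcolce2, Tnxb, Adora3, Robo4 and Mrvi1. Libraries held 33009768 to 38322354 counts; floors cover counting error only. The study calls them biological replicates; the animals behind each are not given in the sources used here, so the SDs measure the spread between these samples, which may be technical. Scripts in Python 3.11.15 with pandas 2.3.3, numpy 2.4.6 and matplotlib 3.10.9 were tested on simulated data. Promoters came from RefSeq (GRCr8), which listed 61.0% of the feature symbols once.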

Additional observations from a re-analysis of the deposited data

Results flagged for a closer look

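With 4 libraries, 1 value was marked where its gap to the nearest of the others was a larger part of the whole range than Dixon's 95% critical value allows. Chance alone marks about 1 in 20 groups, and 11 of the 136 named genes with a mean of 1 FPKM or more and 3 of the 39 sums of lists with a member at that level were marked. The share marked over all features is not given here. The sums share members with each other and with the named genes, so the marks are not independent.

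Library 4 stood apart in 7 genes and 1 list. It was higher for Postn, at 581 FPKM against 423 to 446 in the others, for Anpep, at 17.1 against 14.4 to 14.6, and for S100b, at 1.43 against 0.961 to 0.989. It was lower for Gpc4, at 155 FPKM against 172 to 175, for Actg1, at 1026 against 1112 to 1119, for Mme, at 2.44 against 2.83 to 2.91, and for Fstl1, at 696 against 738 to 742. The summed FPKM of secreted binding proteins and antagonists was also lower in library 4, at 1042 against 1072 to 1075, of which Fstl1 is the largest member.

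Library 3 stood apart in 3 genes and 1 list. Actc1 was lower in it, at 845 FPKM against 930 to 935, and so was the summed FPKM of the cardiomyocyte markers, at 5740 against 6095 to 6131. Vim was higher in it, at 1449 FPKM against 1387 to 1393, and so was Tmsb10, at 1042 against 882 to 906.

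Igf2r was lower in library 2, at 116 FPKM against 119.6 to 120.1 in the others. The summed FPKM of the myofibroblast markers was higher in library 1, at 11834 against 11483 to 11540.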

How the results depend on the processing

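Leaving out 1 of 4 libraries cannot move a mean share by more than the SD between libraries, so the shares could not fail such a check. The matrix lists, as 1 case, held 8.57% to 8.71% of FPKM with a library left out. No count of features moved by 1.5 times or more. Of 60 ranks of 15 genes, 58 moved by less than the SD of the rank over single libraries. All 15 ranks by median FPKM did so too. Exceptions without a library were Col1a1, at rank 5, and Sparc, at rank 9, both without library 1. The number of present features was between 11547 and 14011 under the other limits tried, against 11837. Averaging libraries 2 and 3 to 1 value cannot move a mean share by more than that SD either. It therefore could not show whether a shared culture of these libraries matters. The matrix lists held 8.71% of FPKM after it, against 8.66%.

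The unit mattered more. As a share of raw counts, the 10 most abundant features held 11.8% and the 100 most abundant 28.03%, and 623 features held 50%. Without ribosomal and mitochondrial genes these values were 9.18%, 25.9% and 644. As shares of counts, fibrillar collagens held 6.71%, fibroblast markers 5.15%, matrix lists 16.2%, contractile and cytoskeletal lists 4.94%, cardiomyocyte markers 0.915%, macrophage markers 0.0347%, mitochondrial genes 3.33% and ribosomal proteins 3.84%. This follows from the division by length in FPKM. Without Nppa, removed after the data were seen, cardiomyocyte markers held 0.845% of FPKM. By mean CPM, 14 of 15 ranks moved, as for Nppa from rank 14 to 39, Postn from 124 to 50 and Fn1 to 6.

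Features with a CV over 20% numbered 24, and 24 to 34 without 1 library, 22 by CPM and 18 among features whose implied length differed by at most 1.2 times, the last 2 settings being chosen after the data were seen. No paired analysis was possible because 1 group was described and no test was run. Depth limits genes with few counts, such as Agt, Agtr2 and Il6, for which the spread between libraries is partly counting error.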

Other observations

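Among the 200 most abundant features, 66 belonged to no list, and those named here were chosen after their values were seen. The highest were the elongation factor Eef1a1 (4203 ± 82.1 FPKM), Tpt1 (1936), the elongation factor Eef2 (1266), LOC100360413 (1232), the prolyl isomerase gene Ppia (1058), the elongation factor subunit Eef1g (943) and Rack1, a ribosome-bound scaffold (908). Chaperones of the secretory pathway were present beside the collagens. Calr, calreticulin, was at 546 FPKM, Hspa5, the luminal Hsp70 BiP, at 387, Pdia3, a disulfide isomerase, at 349.6 and Hsp90b1, the luminal Hsp90, at 347. Their cytosolic relatives Hsp90ab1 (629.8) and Hspa8 (605) were higher.

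Ccdc80, a secreted matrix-associated protein, was at 831 FPKM, above Fstl1. Ankrd1, an ankyrin repeat protein of muscle and a known target of YAP, was at 547 and Cryab, a small heat shock protein abundant in muscle, at 416. Genes of glycolysis were led by Gapdh (525), Eno1 (437), Aldoa (425), Pkm (325) and Ldha (305), and the ferritin genes Ftl1 (544) and Fth1 (464) lay in the same range. Scd2, a fatty acid desaturase, was at 483 and Psap, a lysosomal sphingolipid activator, at 369.

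The length implied by count and FPKM was not the same in every library for all genes. It differed by more than 1.2 times for 73 of 6052 features of 10 FPKM or more, and by 2.70 times for Nnmt, which encodes nicotinamide N-methyltransferase. Nnmt had 1932, 1934, 1705 and 893 counts but 14.1, 17.1, 21.0 and 17.8 FPKM, so that library 4 was lowest by counts and not by FPKM. Rpl21 had 7879, 8078, 7900 and 8069 counts but 119, 136, 230 and 122 FPKM. These counts are not scaled to the library total, whereas the implied length takes it into account. That length was 3568, 3212, 2456 and 1322 bases for Nnmt. For Rpl21 it was 1731, 1684, 1043 and 1741 bases. Dmd, the gene of dystrophin, had 4571, 4270, 3811 and 4438 counts and 8.86, 9.51, 13.1 and 12.8 FPKM.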
